A study of Mus musculus with 5 samples.

Results

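Myc peaks that held neither RNA polymerase II (RNAPol2) nor YAP were collected from chromatin immunoprecipitation followed by sequencing (ChIP-seq) in mouse fibroblasts. A Myc peak entered the set when it shared no base with any RNAPol2 peak and no base with any YAP peak, and the set was then split by overlap with the TEAD peaks. This left 1312 of 14354 Myc peaks, or 9.14% (95% Wilson interval 8.68 to 9.62%). Of these, 651 overlapped a TEAD peak and 661 did not. For reference, 11.8% of all Myc peaks had no RNAPol2 peak and 79% had no YAP peak, and the set was chosen by these RNAPol2 and YAP overlaps, which are not results about it.

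The cells were 3T9MycER;YAP fibroblasts, immortalized mouse embryonic cells that express MycER constitutively. MycER joins Myc to a steroid receptor domain, and was activated with 400 nM 4-hydroxytamoxifen (OHT). The same cells carry a transduced, inducible gene for an activated YAP mutant, which was switched on with 2 µg/ml doxycycline. All 4 ChIP samples, which were for Myc, RNAPol2, TEAD and YAP, came from quiescent and confluent cultures that received both agents, so the peaks cannot be compared with a state of lower Myc or YAP. Fixation was with 1% formaldehyde, preceded for YAP by another crosslinker. Signal of endogenous Myc and of MycER cannot be told apart in the Myc sample. There was 1 sample per antibody, so no spread between replicates exists and no p-value is given. Intervals of shares and medians cover counting error only, and treat peaks as independent.

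Myc binds DNA as a partner of Max, most often at E-box sequences, and in proliferating cells it is found mainly at promoters and other open chromatin that already carries RNAPol2. YAP does not bind DNA itself and reaches chromatin through the TEAD family. A Myc peak with no RNAPol2 peak is therefore outside the setting in which Myc is best known, and a TEAD peak at such a site marks a sequence-specific factor there in the absence of a called YAP peak. The lack of a peak means only that none passed the caller's p-value cutoff of 1e-05.

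The comparison group was made of Myc peaks that overlapped RNAPol2 and not YAP, 10025 in number or 69.8% of the list. By the rule they differ from the RNAPol2-free set in RNAPol2 overlap alone. A smaller group had YAP and no RNAPol2 (375 peaks), and 2642 Myc peaks had both. The Myc library held 20441605 tags and was the shallowest of the 4, against 38345189 tags for RNAPol2, 31770727 for TEAD and 29528304 for YAP. Median Myc peak width over the whole list was 605 bp.

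The height of a peak was taken as its fold enrichment, the ratio of the tag pileup at the summit to the local background of the control library. Myc peaks without RNAPol2 or YAP were low. Their median Myc fold enrichment was 6.51 (quartiles 5.62 and 8.13, interval 6.36 to 6.67), against 10.16 (quartiles 7.23 and 16.2, interval 9.96 to 10.25) in Myc peaks with RNAPol2 and no YAP. The ratio of the medians was 0.641 (0.620 to 0.670). Median pileup was 25 tags, against 36 tags in the comparison peaks. Values ran widely at both ends of the set, between 1.77 and 77.2. Myc peaks with YAP and no RNAPol2, the other RNAPol2-free Myc peaks, were about as low, with a median fold of 6.35 (6.12 to 6.58).

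The set grew thinner with Myc height. When the whole Myc list was divided into 10 equal groups by fold enrichment, 21.2% (19.1 to 23.4%) of the lowest group belonged to the RNAPol2-free set, and the share was smaller in each group above it, down to 0.627% (0.330 to 1.19%) in the highest. The lowest group covered folds up to 5.47 and the highest started at 24.1. In absolute terms 14 peaks of the set, or 1.07% (0.637 to 1.78%), had a fold of at least 20, against 1714 (17.1%) of the comparison peaks and 14.7% of all Myc peaks. At the weak end, 644 (49.1%) had a −log10 q-value under 10, against 20.04% of the comparison peaks and 24.2% of all Myc peaks. Myc peaks with YAP and no RNAPol2 were similar, with 205 of 375 (54.7%) under 10 and none at a fold of at least 20.

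These peaks were also narrow. The rule itself favours this, because a wider Myc peak has more bases that could touch an RNAPol2 or YAP peak. The rule bears on height too, since higher peaks were wider. In the comparison peaks the median width rose from 363 bp in the lowest group of Myc fold to 1115 bp in the highest. How much of the width and height of the set comes from the rule was not tested. Median width in the set was 378 bp (371 to 384), against 655 bp (645 to 665) in Myc peaks with RNAPol2 and no YAP. Myc peaks with YAP and no RNAPol2 were nearly as narrow, with a median of 415 bp (399 to 427). The smallest width in the list, 288 bp, equals the fragment size estimated by the caller and was held by 107 peaks of the set (8.16%), against 1.78% of the comparison peaks. They were narrower at equal height too. At the same mix of fold groups the median widths averaged 381 bp, against 470 bp in the comparison peaks, and the RNAPol2-free peaks were narrower in 10 of 10 groups. The height difference was in turn smaller at equal width. Over 5 groups by peak width the ratio of median Myc folds was 0.974, 0.960, 0.808, 0.848 and 1.82 from the narrowest to the widest, so that the RNAPol2-free peaks were lower in 4 of 5 groups. The widest group held only 4 of them. The geometric mean of the ratios, which is the mean taken on a log scale, was 1.03 over the 5 groups and 0.894 without the widest.

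**Figure D1:**
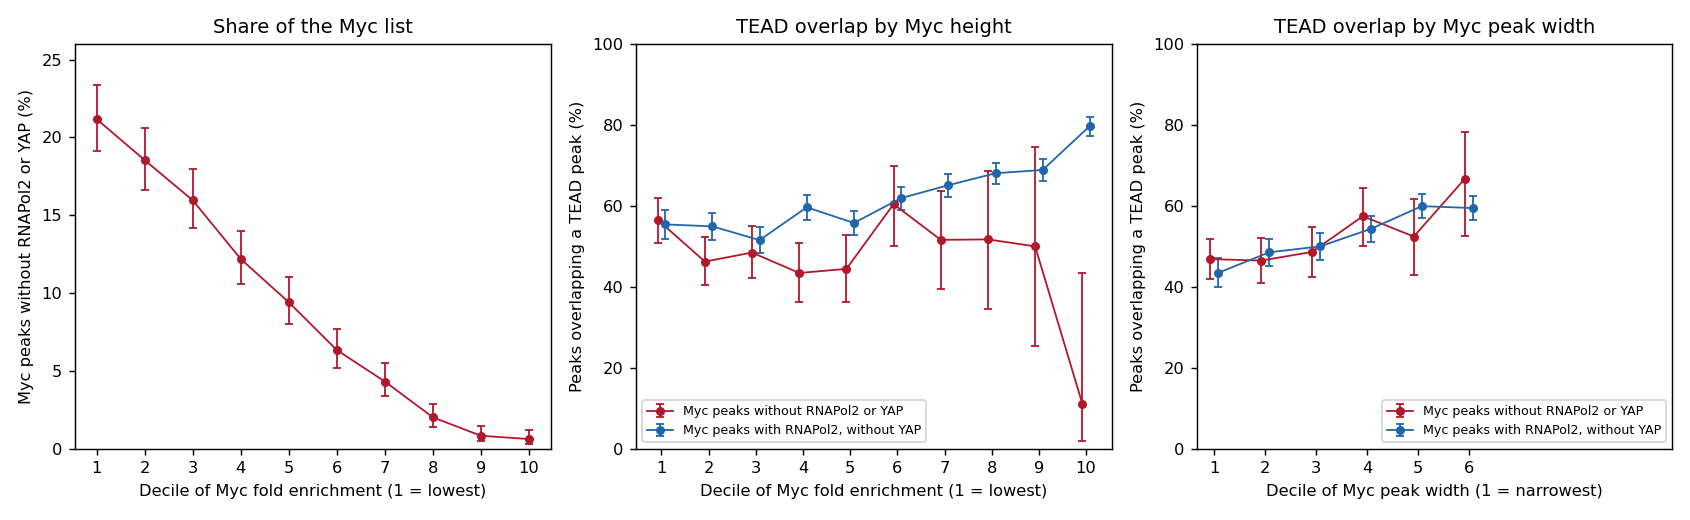
Myc peaks without RNAPol2 or YAP as a share of the Myc list (percent) by decile of Myc fold enrichment (left), and the share that overlaps a TEAD peak (percent) by decile of Myc fold (middle) and of peak width (right, where the widest groups with few RNAPol2-free peaks are not drawn), in red for Myc peaks without RNAPol2 or YAP and in blue for Myc peaks with RNAPol2 and no YAP; bars are 95% Wilson intervals. The share of the list falls to 0.627% in the highest decile, where the red TEAD share lies at 11.1% and the blue at 79.8%. Pooled without weights, the 6 groups of width drawn hold 49.8% (red) and 53.3% (blue). The 4 not drawn hold 40.7% of 27 peaks (red) and 75.2% (blue).

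TEAD overlap, which the choice of the set did not use, was present at 49.6% (46.9 to 52.3%) of Myc peaks without RNAPol2 or YAP. This was lower than the 63.1% (62.1 to 64.0%) of Myc peaks with RNAPol2 and no YAP. The share over all Myc peaks was 69.4%, which includes the Myc peaks with YAP, where TEAD was at 369 of 375 without RNAPol2 (98.4%) and at 2617 of 2642 with RNAPol2 (99.1%). The level depends on the length of the lists, and with all 4 lists at equal length the share in the set was 9.24%, with a ratio to the comparison peaks of 0.923. Only 16 peaks of the set overlapped 2 or more TEAD peaks, against 744 (7.42%) of the comparison peaks.

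The difference in TEAD overlap was smaller at equal height or width. With the comparison peaks weighted to the same mix of fold groups, their TEAD share was 56.7%, and the RNAPol2-free peaks had the lower share in 9 of 10 groups. With weights by width the comparison share was 49.8%, next to 49.6% in the set, and the RNAPol2-free peaks were lower in 6 of 10 groups. This rests on the 6 narrowest groups, which held 1285 of the 1312 peaks. Pooled without weights, they had TEAD at 49.8% (47.1 to 52.5%) of the set and 53.3% (52.0 to 54.6%) of the comparison peaks. That pool is not at equal width. From the narrowest of the 6 groups to the widest the set fell from 399 to 48 peaks, and the comparison peaks rose from 759 to 1078. In the 4 widest groups TEAD was at 11 of 27 RNAPol2-free peaks (40.7%, 24.5 to 59.3%), against 75.2% (73.9 to 76.4%) of comparison peaks. A further measure left out the edges of the Myc peak, though not those of the TEAD peak. The Myc summit itself lay inside a TEAD peak at 522 peaks of the set (39.8%, 37.2 to 42.5%), against 3878 (38.7%, 37.7 to 39.6%) of the comparison peaks.

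Among the strongest peaks the picture was different. In the lowest of the 10 groups of Myc fold, TEAD was at 56.6% (51.0 to 62.0%) of RNAPol2-free peaks and 55.4% (51.8 to 59.0%) of comparison peaks. In the highest group it was at 1 of 9 RNAPol2-free peaks (11.1%, 1.99 to 43.5%) and at 79.8% (77.3 to 82.0%) of comparison peaks. The 2 highest groups together held TEAD at 7 of 21 RNAPol2-free peaks (33.3%, 17.2 to 54.6%) and at 74.3% of comparison peaks. At a fold of at least 20, 3 of 14 RNAPol2-free peaks (21.4%, 7.57 to 47.6%) had TEAD, against 1315 of 1714 (76.7%, 74.7 to 78.7%) of comparison peaks and 80.4% of all Myc peaks of that height. At a fold of at least 30 none of 6 had TEAD, against 80.3% of comparison peaks. The fold of 20 was chosen with earlier results known, and these counts are small. At a fold of at least 10, where 142 peaks of the set remain, 71 (50%) had TEAD, against 69.6% of comparison peaks. None of these contrasts by height was made at equal width. In the highest group the median width was 879 bp in the set and 1115 bp in the comparison peaks.

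The strongest peaks are given by their mm9 positions because no gene annotation of that build was used. The highest Myc peak without TEAD lay at chr16:94962434-94963939, with a fold of 77.2 and a pileup of 243 tags. It was 1506 bp wide, more than the typical width of the set, and its nearest TEAD peak was 3002 bp away and its nearest RNAPol2 peak 15.7 kb away. The next was chr8:96382010-96382912, with a fold of 58.3 and a pileup of 228 tags, and the nearest RNAPol2 peak at 16.6 kb. The third, chr14:79704629-79705536, reached a fold of 56.1 and a pileup of 214 tags, 18.3 kb from RNAPol2 and 71.3 kb from TEAD. Positions chr11:5970685-5972329 and chr6:91548581-91549459 followed, with folds of 44.8 and 36.9. All 5 thus lay between 15.7 and 25.7 kb from the nearest RNAPol2 peak, and none had another peak of the set within 50 kb. Their control levels were between 1.00 and 1.24 times the lowest level in the list.

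Myc peaks with TEAD and without RNAPol2 or YAP had a lower ceiling. The highest, chr4:87681139-87681674, had a Myc fold of 25.4 and a pileup of 80 tags, over a TEAD peak of fold 7 and 1421 bp from RNAPol2. At chr11:120122626-120124141 the Myc fold was 23.3 over 2 TEAD peaks, the higher of fold 8.84. Next came chr10:76545087-76545656, with Myc at 20.4 and TEAD at 8.15. The other two were chr7:148852088-148852635, with Myc at 19.1 and TEAD at 4.77, and chr6:127288281-127288957, with Myc at 18.8 and TEAD at 5.95. The last of these lay 241 bp from an RNAPol2 peak and 304 bp from a YAP peak, so its place in the set depends on where the peak edges were drawn. TEAD folds at these 5 were between 4.77 and 8.84, on both sides of the TEAD list's median of 7.64.

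Apart from these extremes, Myc height differed little between peaks with and without TEAD in the set. Peaks with TEAD had a median Myc fold of 6.38 (6.34 to 6.57), and peaks without TEAD 6.67 (6.41 to 6.89), a ratio of 0.957 (0.920 to 1.02). Their median pileups were both 25 tags and their median widths were 387 and 370 bp. In Myc peaks with RNAPol2 and no YAP the order was the other way round, with a median fold of 11.1 where TEAD was present and 8.89 where it was not. Those comparison peaks also differed in width, with medians of 743 bp with TEAD and 544 bp without. The folds with and without TEAD were not compared at equal width there. Whether the difference in order between the groups goes beyond what other samples would give was not tested.

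**Figure D2:**
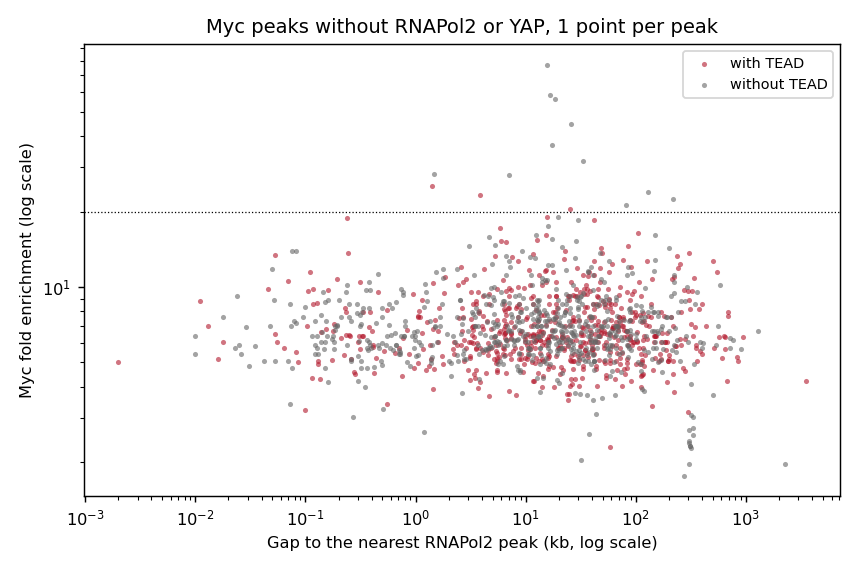
Myc fold enrichment (vertical, log scale) against the gap to the nearest RNAPol2 peak in kb (horizontal, log scale) for the 1312 Myc peaks without RNAPol2 or YAP, 1 point per peak, red with TEAD and grey without TEAD; the dotted line marks a fold of 20. The 14 peaks on or above the line include 3 with TEAD, the highest point is at 77.2, and the group of 13 low points near 300 kb lies at the start of chromosome 9.

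Where Myc and TEAD met without RNAPol2 or YAP, their summits were close. The summit is the base of highest pileup, and its position is the caller's best estimate of the bound site. Median distance between the Myc summit and the nearest TEAD summit was 109 bp (97 to 124, 651 peaks), against 176 bp (171 to 181, 6322 peaks) at Myc peaks with RNAPol2 and TEAD and no YAP. The summits lay within 100 bp of each other at 47.3% (43.5 to 51.2%) of RNAPol2-free peaks and at 29.0% (27.9 to 30.1%) of comparison peaks. Within 250 bp they lay at 84.5% of RNAPol2-free peaks and 66.3% of comparison peaks. The difference was smaller among narrow peaks. Among Myc peaks at most 500 bp wide the medians were 107 bp (94 to 120, 526 peaks) in the RNAPol2-free set and 128.5 bp (121 to 136, 1532 peaks) in the comparison peaks. The 369 Myc peaks with YAP and TEAD and no RNAPol2 had a median of 112 bp (102 to 128), next to that of the set. Fragments averaged 250 bp, so distances under that length do not separate 1 bound site from 2 neighbouring ones.

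**Figure D3:**
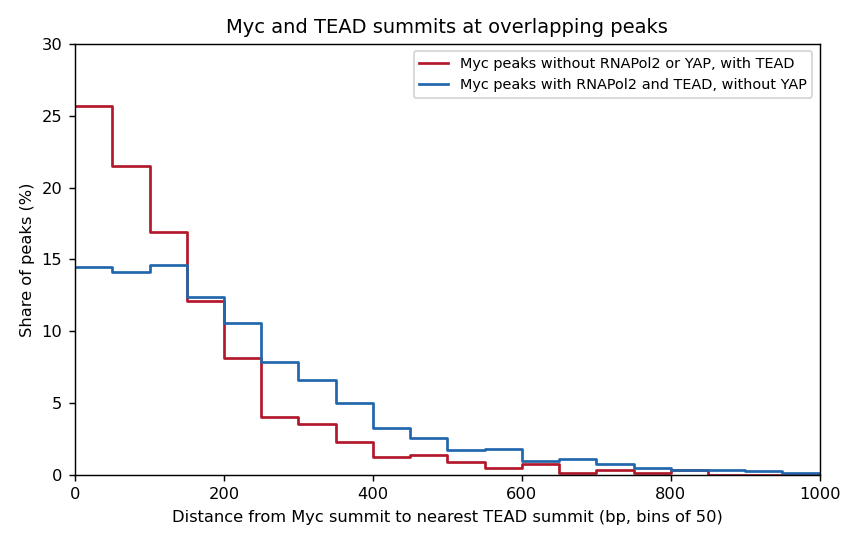
Distance from the Myc summit to the nearest TEAD summit in bp (horizontal, bins of 50 bp) and the share of peaks in each bin in percent (vertical), for Myc peaks with TEAD and without RNAPol2 or YAP (red, 651 peaks) and Myc peaks with RNAPol2 and TEAD and no YAP (blue, 6322 peaks). The red curve is concentrated at short distances, with a median of 109 bp against 176 bp in blue.

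The TEAD peaks at these sites were of ordinary height. The 664 distinct TEAD peaks at Myc peaks without RNAPol2 or YAP had a median TEAD fold of 7.89 (7.61 to 8.29), against 7.34 (7.32 to 7.52) for the 7040 at Myc peaks with RNAPol2 and no YAP. TEAD peaks with no Myc, YAP or RNAPol2 peak, 26994 in all, had a median of 6.95. The 370 at Myc peaks with YAP and no RNAPol2 were far higher, at 15.8 (14.5 to 17.3). So Myc sites that carried TEAD and not YAP had TEAD peaks near the height of the comparison peaks, and Myc sites with YAP and no RNAPol2 had higher ones. A TEAD peak can be longer than the Myc peak over it, and 20 of the 664 touched a YAP peak that did not touch the Myc peak. Those 20 had a median TEAD fold of 17.1 (9.87 to 24.9), against 7.74 (7.58 to 8.27) for the other 644.

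Myc height moved little with TEAD height in the set. Rank correlation across the 651 peaks with TEAD was 0.0613, and 0.00137 across the 6322 comparison peaks, given here as a description because the points share 1 Myc and 1 TEAD library. When the 651 were divided into 4 equal groups by TEAD fold, the median Myc folds were 6.13, 6.58, 6.39 and 6.56 from the lowest TEAD group to the highest. A YAP peak within 1 kb was found at 8, 8, 13 and 15 peaks of these groups, and the intervals of the shares overlap.

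The sites of highest TEAD fold held Myc peaks between 3.22 and 8.26. At chr2:13329764-13330071 the TEAD fold was 69.0 and the Myc fold 5.35, with an RNAPol2 peak 224 bp and a YAP peak 495 bp away. At chr2:6976683-6976975 TEAD reached 53.4 with Myc at 6.04, and a YAP peak was 10 bp away while RNAPol2 was 183 kb away. The third was chr12:9985378-9985786, with TEAD at 46.1 and Myc at 7.62, 159 bp from YAP and 138 kb from RNAPol2. At chr15:6885201-6885488 TEAD was 41.5 and Myc 3.22, with YAP at 31 bp and RNAPol2 at 100 bp. The fifth, chr6:51128474-51128808, had TEAD at 40.1 and Myc at 8.26, 231 bp from RNAPol2 and 6.33 kb from YAP. Myc was below the median of the set at 3 of the 5 and above it at the others, and 4 of the 5 had a called YAP peak within 1 kb that did not touch the Myc peak.

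Distance to RNAPol2 was measured between peak edges. Myc peaks without RNAPol2 or YAP lay a median of 16.6 kb (15.1 to 19.5 kb) from the nearest RNAPol2 peak, with quartiles of 3.82 and 57.1 kb. Other RNAPol2-free peaks lay farther away. For Myc peaks with YAP and no RNAPol2 the median was 34.0 kb (27.7 to 43.4 kb), for TEAD peaks without RNAPol2, Myc or YAP it was 35.9 kb (34.8 to 36.9 kb), and for YAP and TEAD peaks without RNAPol2 or Myc it was 39.7 kb (37.2 to 42.9 kb). The gaps depend on the lists and the rule, and the order of the set and the others did not change under 4 alternatives. With lists of equal length, for example, the medians were 31.9 kb (29.5 to 35.1 kb) in the set and 55.8, 77.9 and 83.7 kb in the others. With no RNAPol2 or YAP peak within 1000 bp they were 25.1 kb (21.5 to 28.1 kb) in the set and 41.5, 41.3 and 45.9 kb in the others. Within 1 kb of RNAPol2 lay 199 peaks of the set (15.2%, 13.3 to 17.2%), against 5.87% of Myc peaks with YAP and no RNAPol2 and 6.21% of the TEAD peaks without the others. Within 10 kb lay 510 (38.9%), and within 100 kb 84.5%.

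Peaks with TEAD were a median of 20.1 kb (16.1 to 25.3 kb) from RNAPol2 and peaks without TEAD 14.9 kb (12.8 to 18.2 kb), and the intervals overlap. Next to RNAPol2 the difference was clearer, with 69 peaks with TEAD (10.6%, 8.46 to 13.2%) and 130 without TEAD (19.7%, 16.8 to 22.9%) within 1 kb. Read the other way, TEAD was at 34.7% (28.4 to 41.5%) of the 199 peaks within 1 kb of RNAPol2. It was at 53.1% of the 311 peaks between 1 and 10 kb, at 48.9% of the 442 between 10 and 50 kb and at 55.8% (50.7 to 60.9%) of the 360 beyond 50 kb. Myc height changed little over these bands, with median folds of 6.35, 6.67, 6.62 and 6.38 from the nearest band to the farthest. The 14 peaks of fold at least 20 all lay beyond 1 kb, with 4, 7 and 3 in the other bands.

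**Figure D4:**
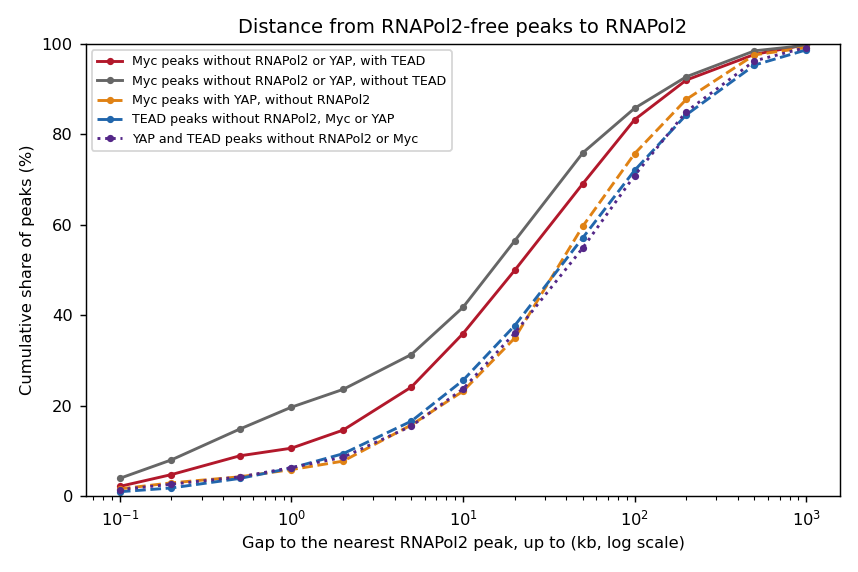
Cumulative share of peaks in percent (vertical) by the gap to the nearest RNAPol2 peak in kb (horizontal, log scale) for Myc peaks without RNAPol2 or YAP with TEAD (red) and without TEAD (grey), Myc peaks with YAP and no RNAPol2 (orange), TEAD peaks without RNAPol2, Myc or YAP (blue) and YAP and TEAD peaks without RNAPol2 or Myc (violet). At 1 kb the red curve stands at 10.6% and the grey at 19.7%, above the orange at 5.87% and the blue at 6.21%.

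The RNAPol2 peaks nearest to the set often carried Myc themselves. There were 1204 distinct ones, and 593 of them (49.3%, 46.4 to 52.1%) overlapped a Myc peak and 59.6% a TEAD peak, against 23.6% and 28.1% of all RNAPol2 peaks. Their median RNAPol2 fold was 7.33, against 5.57 in the whole RNAPol2 list. The RNAPol2 peaks nearest to other sites gave values close to these. Of the RNAPol2 peaks nearest to TEAD peaks without RNAPol2, Myc or YAP, 46.4% carried Myc and 56.3% carried TEAD, and of those nearest to Myc peaks with YAP and no RNAPol2, 45.0% carried Myc.

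None of the 5 peaks farthest from RNAPol2 was high, with Myc folds between 1.96 and 6.67. The farthest, chr15:18751271-18751558, was 3517 kb away, with a Myc fold of 4.21 and a TEAD peak of fold 6.06. The second, chr6:103598879-103599423, was 2271 kb away and had a fold of only 1.96 at a pileup of 147 tags, because the control level there was 23.8 times the floor of the list. The floor is the lowest control level of any Myc peak, and a peak far above it lies where the control library itself piles up. Positions chr13:27118442-27118829, chr14:23750202-23750639 and chr16:7560915-7561314 were 1285, 943 and 909 kb away, with Myc folds of 6.67, 6.34 and 5.64.

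Distances to the other factors also differed between peaks with and without TEAD. The nearest YAP peak was a median of 34.2 kb (29.6 to 37.7 kb) from peaks with TEAD and 51.5 kb (43.3 to 55.0 kb) from peaks without TEAD. YAP was within 1 kb of 44 peaks with TEAD (6.76%) and 23 without (3.48%). In all Myc peaks with RNAPol2 and no YAP the median gap to YAP was 53.5 kb, and in those without TEAD 61.3 kb. YAP was within 1 kb of 5.94% and 5.52% of these. Comparison peaks with TEAD were not measured apart, so no like value stands beside the set's peaks with TEAD. Among peaks without TEAD, 57 of 661 (8.62%) had a TEAD peak within 250 bp, against 10.4% of Myc peaks with RNAPol2 and neither TEAD nor YAP. Within 1 kb these were 126 (19.1%) and 30.8%. The median gap to TEAD was 8.30 kb (6.74 to 9.69 kb), against 5.06 kb (4.54 to 5.64 kb) in those comparison peaks.

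Other Myc peaks were farther from the set than from the comparison peaks. The nearest other Myc peak of any kind was a median of 27.9 kb (25.1 to 31.4 kb) away, against 15.1 kb (14.4 to 15.9 kb) for Myc peaks with RNAPol2 and no YAP. Another Myc peak lay within 1 kb of 9.83% of the set and 25.3% of the comparison peaks, and within 50 kb of 66.8% (64.2 to 69.3%) and 77.0% (76.2 to 77.8%). No other peak of the set was within 50 kb of 1113 peaks (84.8%), 163 had 1 such neighbour, 18 had 2 and 5 had 3. The remaining 13 formed a single group.

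That group lay at the start of chromosome 9, from 3000586 to 3038452. It held 13 of the 17 Myc peaks there, 1 of them with TEAD. Their pileups of 89 to 153 tags stood against a median of 25 in the set, yet their Myc folds were only 1.96 to 4.09, because the control level was between 9.48 and 19.9 times the floor. The same interval held 7 YAP peaks, 5 TEAD peaks and no RNAPol2 peak. The peak of lowest p-value in it, chr9:3018924-3019614, had a fold of 4.09 and a pileup of 122 tags. The next were chr9:3000586-3000930 with a fold of 3.04, chr9:3038150-3038452 with 3.16 and a TEAD peak of 2.17, chr9:3016059-3016366 with 3.10, and chr9:3027104-3027804 with 2.68. What raises the control level in this interval was not tested.

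Raised control signal was more common in the set than in the comparison peaks. A control level at least 2 times the floor was found at 61 peaks of the set (4.65%), against 1.45% of the comparison peaks and 2.22% of all Myc peaks. At 5 times the floor these were 20 (1.52%) and 7 (0.0698%). Raised control was not particular to the set. Myc peaks with YAP and no RNAPol2 had 24 of 375 (6.4%, 4.34 to 9.35%) at 2 times and 8 (2.13%, 1.08 to 4.15%) at 5 times the floor. The group on chromosome 9 gave 13 of each count in the set, and without it 48 peaks (3.70%, 2.80 to 4.87%) were at 2 times and 7 (0.539%) at 5 times the floor. The median control level was 1.15 times the floor in the set, 1.19 with TEAD and 1.08 without, against 1.03 in the comparison peaks. In Myc peaks with YAP and no RNAPol2 it was 1.18. Without the Myc peaks at 2 times the floor or more, the set held 1251 peaks and its TEAD share was 49.9%.

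Along the genome the share of Myc peaks that belonged to the set ran from 6.41% on chromosome X (18 of 281, 4.09 to 9.90%) to 12.5% on chromosomes 6 (93 of 745, 10.3 to 15.1%) and 9 (117 of 937, 10.5 to 14.8%). Without its proximal group chromosome 9 stood at 11.3% (9.42 to 13.5%). The genome without chromosomes 6 and 9 gave 8.70% (8.22 to 9.20%). Chromosomes 10, 15 and 19 had raised control levels over all Myc peaks, with medians of 1.40, 1.49 and 1.30 times the floor, and the set followed the same pattern at 1.43, 1.51 and 1.38. The TEAD share of the set varied between 33.3% on chromosome 12 (9 of 27 peaks) and 60.2% on chromosome 5 (53 of 88). These counts are small, and whether the chromosomes differ in this share was not tested.

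**Figure D5:**
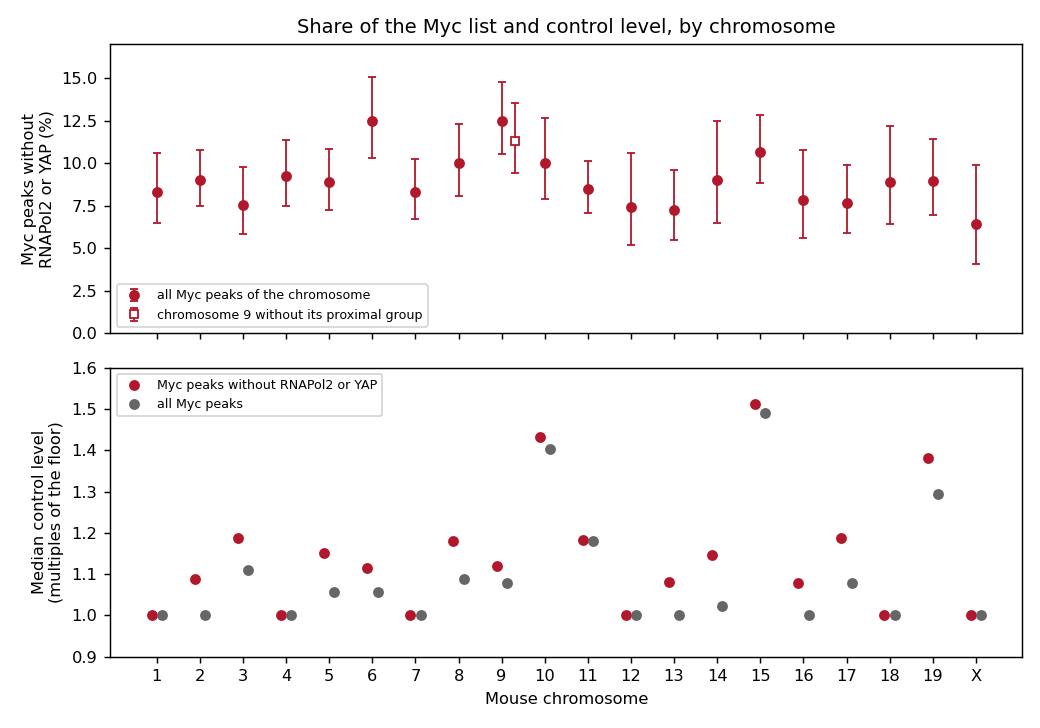
Top, Myc peaks without RNAPol2 or YAP as a share of all Myc peaks of a chromosome in percent, with 95% Wilson intervals, and an open square for chromosome 9 without its proximal group; bottom, the median control level in multiples of the floor, in red for Myc peaks without RNAPol2 or YAP and in grey for all Myc peaks. The share is highest on chromosomes 6 and 9 (12.5% each), and the control level is highest on chromosome 15 in both sets (1.51 and 1.49).

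The 3 peaks that came closest to RNAPol2 without touching it were chr15:97655491-97655809 at 2 bp, with a Myc fold of 5.02 and a TEAD peak, and chrX:8777230-8777894 and chrX:70474015-70474318 at 10 bp, with folds of 6.35 and 5.40. Just outside stood chr10:44824214-44824501, which shared 1 bp with RNAPol2 and had a fold of 5.03, and chr5:106160277-106160899 and chr17:86550164-86550536, which shared 3 bp and had folds of 7.66 and 7.62. Over the 40 peaks with a gap of up to 100 bp the median fold was 6.43, and 14 (35%) had TEAD. Over the 54 Myc peaks without YAP that shared up to 100 bp with RNAPol2 the median fold was 6.08, and 20 (37.0%) had TEAD.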

How the data were processed

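The 4 samples with peak lists were ChIP-seq libraries of 3T9MycER;YAP cells, and the input sample was not used here. Tools named in the submitters' processing notes are MACS2 2.0.9, SAMtools and BWA 0.6.2, with mm9 as the build. Peaks were called by the authors sample by sample, per the file headers, against 1 control library of 60189064 tags, at a p-value cutoff of 1e-05, with tags of 51 bp and at most 2 tags per position. Whether that control is the input sample is not stated. The deposited pileup is a signal of extended tags at the summit, and the deposited fold enrichment is its ratio to the local background, the largest of a genome average and control windows of 1000 and 10000 bp. The −log10 p-value and −log10 q-value were deposited by the authors from the same caller. Other deposited values were peak and summit positions.

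The control level was computed as pileup over fold enrichment, and its floor was 3.15 tags. Overlap meant at least 1 shared base. Shares have 95% Wilson intervals and medians exact binomial intervals. They treat tags and peaks as independent, which PCR copies without molecular identifiers are not. No test between samples was possible. The set, the comparison groups and the rule for named regions were chosen with earlier results of these data known. Regions were named as the 5 peaks of highest Myc fold with TEAD and without TEAD, the 5 of highest TEAD fold, the 5 farthest from RNAPol2, the 5 with the most others of the set within 50 kb, and the 3 on each side of the edge of the rule. Alternatives changed the strength and length of the lists, the overlap rule, the sequences used and the measure of height. Those chosen after seeing the data were the Myc list alone at a −log10 q of at least 10, the removal of Myc peaks with control at least 2 times the floor, the Myc summit inside a TEAD peak, and the groups by width without the widest. The routines, tested on simulated data, ran under scipy 1.17.1, pandas 2.3.3, numpy 2.4.6 and Python 3.11.15, and matplotlib 3.10.9 drew the plots. No genome or annotation of mm9 was used, so E-boxes, sequences and genes were not analysed here.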

Additional observations from a re-analysis of the deposited data

How the results depend on the processing

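No paired analysis was possible because each antibody had 1 sample and no result comes from a test, and no replicate was left out. Of 93 alternative values, 59 were counted as unmoved, 31 moved further and 3 turned round. Unmoved meant inside the interval of the main analysis. The number of peaks has no interval and was judged by a wider limit, so that changes from 1312 to 961 or to 1893 counted as unmoved. This limit takes no account of the length of the Myc list, which several alternatives also shortened. The 1893 peaks, from lists of equal length, came from 10293 Myc peaks in place of 14354. Their share of the Myc list was thus above the 9.14% of the main analysis. None of the results moved without mitochondrial, Y and unplaced sequences, without chromosomes 10, 15 and 19, or without Myc peaks of raised control level.

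The number of peaks in the set was 345 with the stronger 50% of each list, 4400 when RNAPol2 or YAP removed a Myc peak only with summits within 250 bp, and 668 with the Myc list alone at a −log10 q of at least 10. The first and last of these also shortened the Myc list, so their counts are not shares of the full list. The TEAD share was 38.3% with the stronger 50%, 43.7% where each list was kept from a −log10 q of 10 upward, 44% where overlaps had to cover 50% of the shorter peak, 35.1% with summits within 250 bp, 9.24% with lists of equal length, and 39.8% with the Myc summit inside a TEAD peak. Its ratio to the share in Myc peaks with RNAPol2 and no YAP, 0.787 in the main analysis, was 0.987 with the stronger 50%, 0.881 from a −log10 q of 10 upward and 0.923 with lists of equal length, and turned round to 1.03 with the summit rule.

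The ratio of median Myc folds, 0.641 in the main analysis, was 0.740 with the stronger 50%, 0.673 from a −log10 q of 10 upward, 0.756 with summits within 250 bp, 0.675 with equal lists, 0.694 by pileup, 0.542 by −log10 p and 0.671 with the Myc list alone at −log10 q of at least 10. It turned round to 1.03 as the geometric mean over 5 groups by peak width, where no interval was computed. This rests on the widest group, with 4 peaks of the set, and without that group the geometric mean was 0.894. The Myc fold with TEAD over that without TEAD became 1.03 with the Myc list alone at −log10 q of at least 10, and its interval held 1 there as in the main analysis. The ratio of median TEAD folds, 1.07 in the main analysis, was 1 with summits within 250 bp, 1.19 by pileup and 1.18 by −log10 p, and turned round to 0.973 with equal lists.

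The median gap to RNAPol2 was 20945 bp with the stronger 50%, 21210 bp from a −log10 q of 10 upward, 13751 bp with overlaps over 50% of the shorter peak, 0 bp with summits within 250 bp, where edges may overlap, 25104 bp with no RNAPol2 or YAP peak within 1000 bp, and 31891 bp with equal lists. The median distance between Myc and TEAD summits was 89 bp with the Myc list alone at −log10 q of at least 10. Equal lists shortened the RNAPol2 and TEAD lists most, so fewer RNAPol2 peaks remained to remove a Myc peak. The Myc library was the shallowest and 49.1% of the set had a −log10 q under 10; the part of depth in the set was not tested.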
